A study of Mus musculus with 6 samples.

Results

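Chromatin accessibility was examined at 10 genes of the enteroendocrine lineage in mouse small intestinal crypts. The genes were the transcription factors Neurog3, Neurod1 and Insm1, the granins Chga and Chgb, the peptide hormone genes Cck, Gcg, Sct and Tac1, and Tph1, an enzyme gene of serotonin synthesis. A peak was taken as a member when the deposited table named it for exactly 1 of these genes. This rule found 9 of 123510 peaks, at 5 of the 10 genes.

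ATAC-seq, in which a transposase inserts adaptors into open DNA, had been run on whole crypt nuclei of the small intestine of C57BL/6 mice. There were 3 WT libraries and 3 Smarcad1-KO libraries, in which Cre recombinase driven by the Villin promoter removes the floxed exons 12 to 14 of Smarcad1, a chromatin remodeler, in the intestinal epithelium. Per the study's methods all mice were males, and the floxed allele comes from 1 targeted ES cell clone (mouse line CE6). Their age at this experiment, and whether WT mice carried a floxed or Cre allele, are not given in the sources used here. The labels call the libraries triplicates without tying each to a mouse, so the p-values measure the spread between these libraries.

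Enteroendocrine cells are scattered hormone-secreting cells of the gut epithelium that arise from crypt progenitors. Neurog3 starts the lineage and acts upstream of Neurod1 and Insm1, which carry endocrine differentiation forward. The mature cells store peptide hormones in dense core granules built with granins. Enterochromaffin cells use Tph1 to make serotonin. Because whole crypts were measured and these cells are rare, fewer cells of the lineage and less accessible chromatin per cell cannot be told apart in these values.

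The sequences below are shown because the peaks of Cck, Chgb and Tac1 cover their gene starts or lie near them, while Chga, Gcg and Neurog3 had no peak over the bases printed. They are RefSeq bases of GRCm38.p6, written 5′ to 3′ along the gene strand and ending just before the RefSeq start or, for Tac1, before the first exon in GENCODE. The Chgb line shows only the stretch around its CRE. Promoters of 9 of the 10 genes matched in the RefSeq table, all except Insm1. Capitals mark the core of the cAMP response element (CRE; TGACG, or CGTCA on the other strand) and the E-box CAGATG, a form bound by NeuroD-type factors.
Cck, chr9:121495695-121495944, minus strand: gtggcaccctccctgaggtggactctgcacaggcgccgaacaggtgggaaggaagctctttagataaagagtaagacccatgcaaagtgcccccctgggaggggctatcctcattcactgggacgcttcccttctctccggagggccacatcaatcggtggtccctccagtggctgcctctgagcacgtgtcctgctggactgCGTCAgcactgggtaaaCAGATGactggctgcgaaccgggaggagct
Tac1, chr6:7554811-7554878, plus strand: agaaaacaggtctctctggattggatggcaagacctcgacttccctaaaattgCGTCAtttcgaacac
Chgb, chr2:132781559-132781588, plus strand: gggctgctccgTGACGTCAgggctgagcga
Chga, chr12:102554691-102554940, plus strand: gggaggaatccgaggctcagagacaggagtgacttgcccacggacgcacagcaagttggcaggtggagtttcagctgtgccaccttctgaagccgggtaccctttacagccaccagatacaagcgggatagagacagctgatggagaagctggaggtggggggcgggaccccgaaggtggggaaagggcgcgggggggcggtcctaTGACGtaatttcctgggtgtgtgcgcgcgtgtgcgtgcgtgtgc
Gcg, chr2:62483654-62483903, minus strand: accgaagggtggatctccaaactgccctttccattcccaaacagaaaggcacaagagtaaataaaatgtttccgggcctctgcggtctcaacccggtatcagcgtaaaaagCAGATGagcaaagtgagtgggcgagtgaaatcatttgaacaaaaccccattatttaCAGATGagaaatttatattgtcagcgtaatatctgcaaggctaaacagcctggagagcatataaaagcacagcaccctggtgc
Neurog3, chr10:62132840-62133089, plus strand: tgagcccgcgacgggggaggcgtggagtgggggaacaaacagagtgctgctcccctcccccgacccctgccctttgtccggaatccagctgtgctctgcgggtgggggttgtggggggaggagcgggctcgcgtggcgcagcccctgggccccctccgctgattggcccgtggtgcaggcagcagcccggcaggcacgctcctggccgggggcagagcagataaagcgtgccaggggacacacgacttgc

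In the 250 bases before the RefSeq start, a CRE core was found on either strand in 5 of the 9 genes, namely Chga, Chgb, Cck, Tac1 and Tph1, against 17.9% of 27025 promoters of the same length. A gene with several promoters in the table was scored on the first one listed. The core holds a CG pair (CpG), which some of these promoters hold more often than most. CpG observed over expected was 0.71 at Chga, 0.80 at Chgb, 0.40 at Cck, 1.05 at Tac1 and 0.43 at Tph1. The median over all promoters was 0.378, and the share with a core was not matched for CpG. The granin and hormone genes Chga, Chgb, Cck and Tac1 are the members with both a matched promoter and a named peak. In Chga and Cck the core began 44 and 47 bases before the start. Tac1 held a pair, the printed one 197 bases before the start and another, past the printed stretch, at 43 bases. Chgb held the full element TGACGTCA, which counts as overlapping cores on both strands, 72 bases before its RefSeq start. Of all promoters, 1.62% held it. The Chgb element and the Tac1 core at 43 bases lie past the GENCODE starts of these genes. CAGATG occurred in 4 of 9, at Cck, Gcg, Sct and Tac1, against 14.5% of all promoters. The wider E-box CANNTG, which includes CAGATG, was in 8 of 9 against 66.0%. Gcg and Sct held the TATA box TATAAA, against 13.0%. The GC box GGGCGG was in 5 of 9 against 32.9%. In the central 300 bases of the 9 member peaks the shares were close to or below those of all peaks. The CRE core was in 1 of 9 against 10.3% of all peaks, CAGATG in 2 against 24.3% and CANNTG in 6 against 82.0%. These shares hold for the central bases only. The Chgb element and the Tac1 cores lie inside the start peaks of these genes but not wholly inside this window. Whole peaks were not scanned. Each match is a description of letters and not a measured binding site.

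Before the results, the libraries themselves differed. Reads in peaks numbered 7077476, 6180717 and 16301164 for WT1 to WT3 and 6268084, 7721797 and 4339306 for KO1 to KO3, so that 1 read stood for between 1.00 (WT3) and 3.99 (KO3) on the scaled linear scale. A first principal component with 43.8% of the variance put WT2 (86.5) and KO2 (97.1) at one end and WT3 (-43.8) and KO3 (-146) at the other. WT1 (-2.65) and KO1 (8.84) stood between them, so the library number and not the genotype ordered the libraries along it. The Smarcad1 start peak had log2 values of 8.44, 7.32 and 8.70 in WT and 8.36, 7.34 and 8.61 in KO, and none of the 4 Smarcad1 peaks covers the deleted exons, so these data do not check the genotype.

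The transcription factors had few named peaks. Insm1, a zinc finger factor of the endocrine programme, had 1 peak, while no peak in the table was named for Neurog3 or Neurod1. Thus 1 of 3 regulators and 4 of 7 product genes had a named peak, with 1 and 8 peaks. The regulator genes span 1.67 to 4.23 kb and the product genes 0.804 to 27.9 kb, and the counts were not adjusted for length. Among products the count was 3 for Chgb, 2 each for Chga and Tac1, and 1 for Cck. Gcg, the proglucagon gene of L cells, Sct, the secretin gene, and Tph1 had none. Of 21924 protein-coding genes, 65.3% had a named peak, and a gene with any had a median of 2. The table holds only called peaks and thus gives no value, not even 0, at a gene without one.

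**Figure D1:**
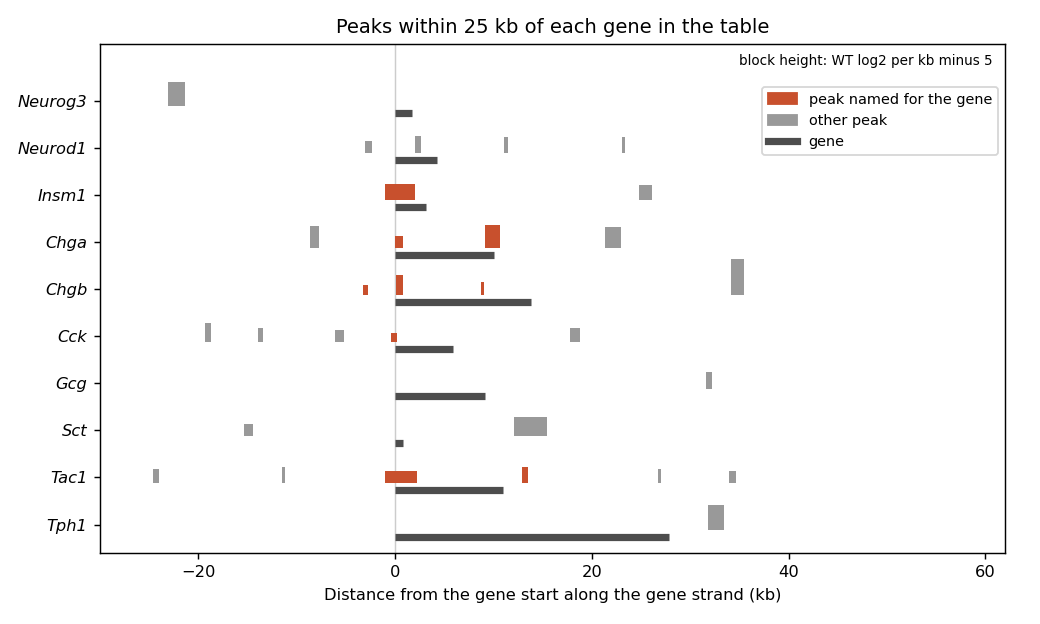
Peaks of the table within 25 kb of each gene, by distance of the peak from the gene start along the gene strand (kb); block height is the WT mean log2 read count per kb above a floor of 5, red blocks carry the gene's name and dark bars are the genes. Red blocks stand at Insm1, Chga, Chgb, Cck and Tac1, and the grey blocks at Neurod1 carry another name.

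The name in the table depended on the neighbouring genes. Neurod1 overlaps the annotated gene Cerkl, and a pair of peaks within 5 kb of it were named Cerkl. The peak chr2:79454101-79454700 lies wholly within the coding exon of Neurod1. Its log2 values were 6.22, 5.69 and 5.78 in WT and 6.17, 5.81 and 6.00 in KO, and the groups overlapped. The peak chr2:79459051-79459800, which lies 2.30 kb before the gene's start, had 6.10, 5.46 and 5.67 in WT and 5.88, 5.77 and 6.17 in KO. A further Cerkl peak 6.82 kb past the gene's end, chr2:79445251-79445700, had 5.29, 5.52 and 5.32 in WT and 4.12, 5.22 and 5.17 in KO. Every KO library was below every WT library there, with a difference of -0.54 and a limma interval of -1.25 to 0.16. For Tph1 a peak named Sergef, chr7:46639051-46640700, lies 3.94 kb past the gene's end. Counting peaks within 5 kb by annotation gave 12 peaks in place of 9. The nearest peak to Neurog3 lay 21.4 kb away, to Gcg 22.5 kb, and to Sct 11.3 kb.

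Strength was compared per kb of peak, because the peaks are between 300 and 3300 bp wide, and is given as log2 read count per kb. Insm1 had a WT level of 6.54 ± 0.157 (SD, n = 3), at the 61.7th percentile of all peaks. The strongest product peak lay at the 3′ end of Chga, at 7.15 ± 0.354 (86.0th percentile). The weakest was the Cck start peak at 5.82 ± 0.373 (percentile 0.462). Between them stood the Chgb start peak at 6.89 ± 0.640 and the Tac1 start peak at 6.15 ± 0.373, at percentiles 80.2 and 15.6. The median peak of the series had 6.43 per kb, and the median peak over a transcript start 7.22. All 3 member peaks over a GENCODE start, at Insm1, Cck and Tac1, were below that second median per kb. The Insm1 and Tac1 start peaks are 3000 and 3300 bp wide, against a series median of 750 bp. As whole peaks, not divided by width, they stood at percentiles 91.3 and 89.0 of all peaks, and Cck at 21.2.

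**Figure D2:**
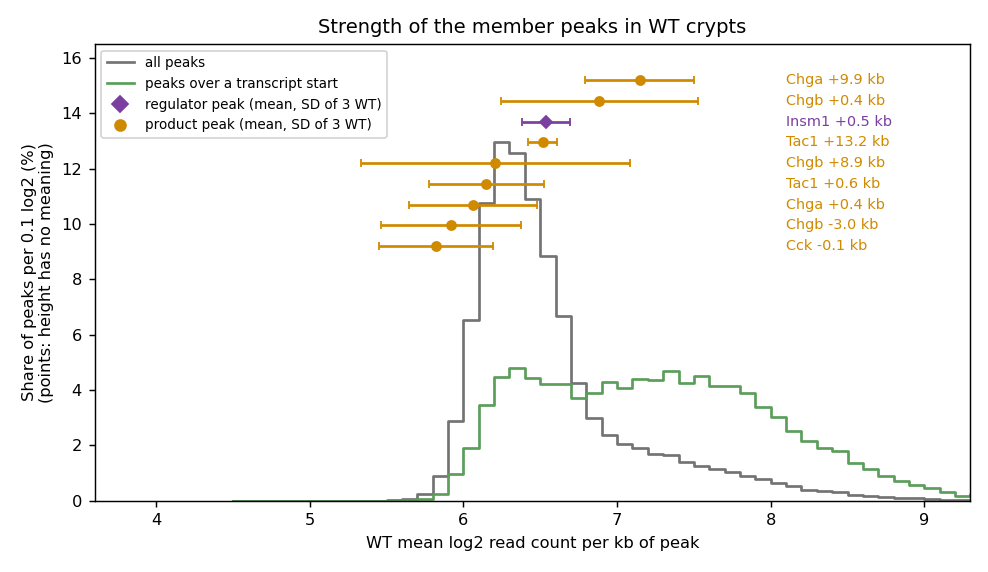
WT mean log2 read count per kb of each member peak with its SD over 3 WT libraries (horizontal axis), over the distribution of all peaks and of peaks over a transcript start (share per 0.1 log2, vertical axis); the height of the points has no meaning. The strongest point is Chga at 7.15 and the weakest Cck at 5.82, and the Insm1 diamond stands at 6.54.

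The regulator peak exceeded the mean of the 8 product peaks by 0.38 in WT1, by -0.01 in WT2 and by 0.23 in WT3, a mean of 0.20 ± 0.195 (SD, n = 3). This difference was about as large as its spread between libraries and comes from 1 peak on the regulator side. In KO the values were 0.04, -0.34 and 0.62, with a mean of 0.11 ± 0.484 (SD, n = 3). When each gene was represented by its strongest peak alone, the WT difference turned to -0.05, and with peaks assigned within 5 kb by annotation it was -0.01. With genes weighed equally it was 0.27. For whole peaks, not divided by width, it was 2.15, where the 3000 bp width of the Insm1 peak enters.

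The values below are log2 read counts of whole peaks. Of all 123510 peaks, limma called 0 (0.00%) at an adjusted p below 0.05, and no member peak was called. The study's own edgeR test on read counts did report sites with changed accessibility, mostly increases in KO. The count of 0 therefore holds for this limma fit, and the members were not compared with those sites. Alternative fits called 3 peaks of the table with voom on recovered reads, 30 without KO2 and 272 with the replicate number as a block, and no member in any of them. At an unadjusted p below 0.05 there were 2821 peaks (2.28%) and 2 of the 9 members, the Cck peak and the distal Tac1 peak. At Cck the 3 KO values were above the 3 WT values, as in 2.70% of all peaks, and at the distal Tac1 peak they were below, as in 4.10%. Together such peaks made up 2 of 9 members (22.2%) and 6.80% of the table. Among the marker lists read below, the count was 2 of 9 for immune cells and 1 of 8 for enteric neurons and glia. It was 1 of 18 for stroma and endothelium, and 0 for epithelium and for stem cells. The KO mean was above the WT mean in 8 of 9 members, and the matching share over all peaks was not counted. The 9 peaks stand at 5 genes and share the same libraries, so they are not independent directions. At Insm1, the 3′ Chga peak and the Chgb and Tac1 start peaks the differences were only 0.04 to 0.09. All of these turned below 0 when KO3 was left out. The members' median difference was 0.09, against -0.02 over all peaks, and it turned to -0.09 without KO3, where the median over all peaks was -0.11. Without WT3 it was 0.26 and without KO2 0.19, with all-peak medians of 0.08 in each case.

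**Figure D3:**
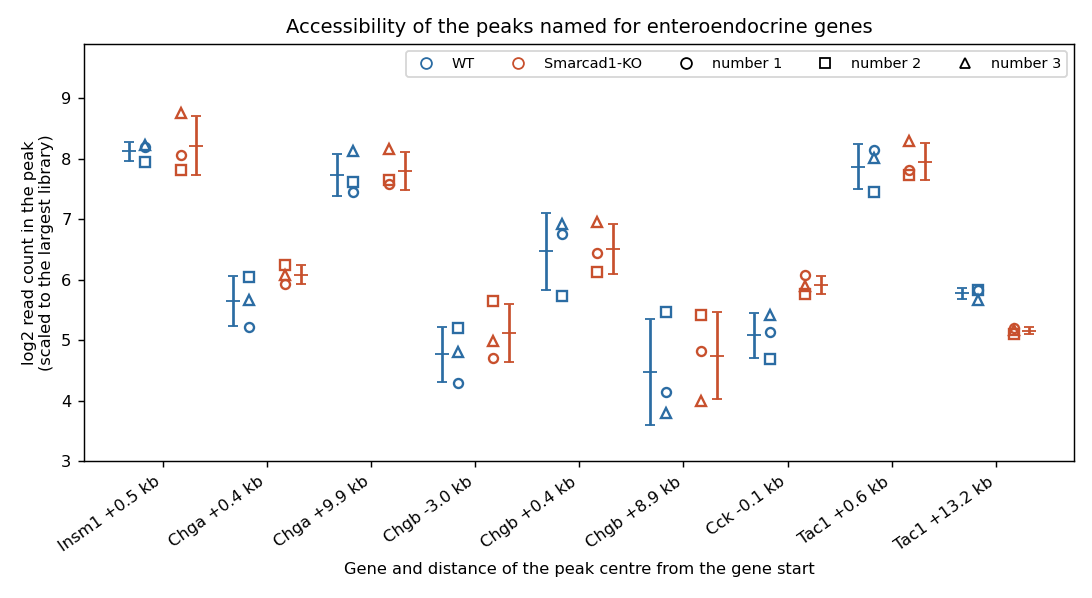
Log2 read count of each of the 9 member peaks (vertical axis) in the 3 WT libraries (blue) and 3 Smarcad1-KO libraries (red), with group mean and SD beside the points and the library number as the symbol. The groups are apart only at Cck, where KO is higher, and at the Tac1 peak 13.2 kb from the start, where KO is lower.

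Cck encodes cholecystokinin, the hormone of I cells that acts on gallbladder and pancreas. Its peak, chr9:121495501-121496100, covers the gene start, the first exon and part of the first intron, and holds the CRE core and the CAGATG printed above. Its log2 values were 5.14, 4.69 and 5.43 in the WT libraries and 6.08, 5.77 and 5.90 in the KO libraries. The lowest KO library was above the highest WT library. These values rest on 14 to 43 reads per library. The KO mean was 5.92 ± 0.156 against 5.09 ± 0.373 in WT (SD, n = 3 each), 1.78-fold higher. The log2 difference was 0.83 with a limma 95% interval of 0.25 to 1.41, an unadjusted limma p of 0.00812 and an adjusted p of 1.00. It was at the 99.6th percentile of the differences of all peaks. Over 13 alternative fits the difference stayed between 0.63 and 1.00 and the adjusted limma p between 0.281 and 1.00. The other 4 peaks within 25 kb of Cck had differences of -0.35 to 0.19 and overlapping groups.

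Tac1 encodes the precursor of substance P, made by enterochromaffin cells and also by enteric neurons. Its start peak, chr6:7553851-7557150, spans the promoter, the first exons and part of the coding sequence. The log2 values there were 8.15, 7.45 and 8.02 in WT and 7.82, 7.74 and 8.30 in KO, so the groups overlapped. The difference of 0.08 had a limma interval of -0.59 to 0.75.

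The second Tac1 peak, chr6:7567801-7568400, lies 1.97 kb past the annotated end of the gene. WT libraries had 5.83, 5.83 and 5.67 and KO libraries 5.21, 5.10 and 5.17. Every KO library was below every WT library, on 9 to 51 reads per library. The KO mean was 5.16 ± 0.0537 against 5.78 ± 0.0922 (SD, n = 3 each), 1.53-fold lower. The log2 difference was -0.62 with a limma 95% interval of -1.14 to -0.09, an unadjusted limma p of 0.0243 and an adjusted p of 1.00. The other 4 peaks within 25 kb of Tac1 had differences of -0.72 to 0.14 and overlapping groups. Without WT1 the unadjusted limma p of the distal peak was 0.0619, without KO2 0.0674 and on recovered reads with voom 0.137. Its central bases are printed here because they repeat, as a plus strand run of chr6:7567951-7568250 from GRCm38.p6, with the most repeated word of 12 bases in capitals.
Tac1 distal peak: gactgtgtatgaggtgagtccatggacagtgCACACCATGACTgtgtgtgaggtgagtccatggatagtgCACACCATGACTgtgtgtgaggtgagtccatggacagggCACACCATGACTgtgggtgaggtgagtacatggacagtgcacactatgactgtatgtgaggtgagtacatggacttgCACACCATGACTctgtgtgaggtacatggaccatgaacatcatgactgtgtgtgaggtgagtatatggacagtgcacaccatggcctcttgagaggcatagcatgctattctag
The word occurs 4 times, and 65.1% of bases equal the base 39 positions further on. Of all peaks, 0.280% had as high a best match to themselves at a shift of 10 to 100 bases. Whether reads in such a repeat were placed uniquely was not tested beyond the mapping quality limit of 20 that the authors set.

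**Figure D4:**
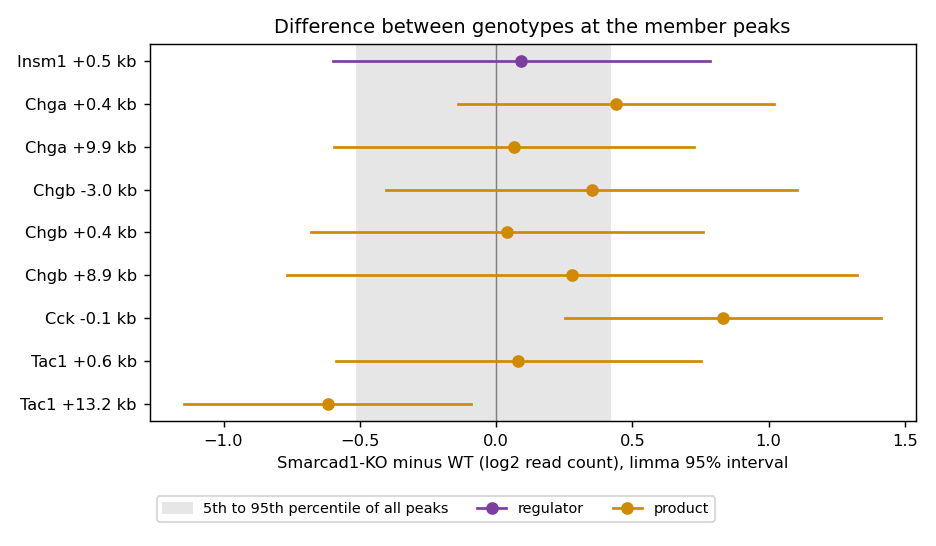
Smarcad1-KO minus WT log2 read count (horizontal axis) of the 9 member peaks with limma 95% intervals, purple for the regulator and orange for products; the shaded band runs from the 5th to the 95th percentile of all peaks (-0.51 to 0.42). The intervals at Cck (0.25 to 1.41) and at the distal Tac1 peak (-1.14 to -0.09) leave out 0, and the other 7 include it.

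The granins package hormones in secretory granules, and Chga is a standard marker of enteroendocrine cells. The Chga peak just inside the gene start, chr12:102555001-102555750, had 5.22, 6.05 and 5.67 in WT and 5.93, 6.25 and 6.08 in KO. KO1 and WT2 crossed, so the groups overlapped. Its difference was 0.44 with a limma interval of -0.14 to 1.02. Without WT1 it was 0.23 and without WT2 0.64, with an unadjusted limma p of 0.0340 in the second case. The stronger Chga peak, chr12:102564151-102565650, covers the last exon with its coding and untranslated bases. It had 7.45, 7.62 and 8.13 in WT and 7.58, 7.65 and 8.17 in KO. The number 3 libraries were highest in both groups, and the difference was 0.07 with an interval of -0.59 to 0.73.

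For Chgb the strongest peak, chr2:132781351-132782100, begins just inside the GENCODE start and contains the CRE printed above. It had 6.75, 5.74 and 6.92 in WT and 6.45, 6.13 and 6.95 in KO, with the number 2 libraries lowest in both groups. The difference of 0.04 had a limma interval of -0.68 to 0.76. A weak peak before the gene, chr2:132778051-132778500, had 4.29, 5.20 and 4.81 in WT and 4.71, 5.65 and 5.00 in KO, on 8 to 35 reads. An intronic peak, chr2:132790051-132790350, had 4.14, 5.46 and 3.81 in WT and 4.82, 5.43 and 4.00 in KO, on 4 to 30 reads. The number 2 libraries were highest at both weak peaks, opposite to the start peak, and neither pair of groups separated. Their differences were 0.35 and 0.28. The first ranged from 0.09 to 0.57 when 1 library was left out.

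Insm1, the only regulator with a named peak, was covered at chr2:146220901-146223900 from before its start into its single exon. The log2 values were 8.20, 7.95 and 8.23 in WT and 8.07, 7.82 and 8.76 in KO. KO3 was the highest of the 6 libraries and KO2 the lowest, on 109 to 300 reads. The difference was 0.09 with a limma interval of -0.60 to 0.78, and it was -0.18 when KO3 was left out.

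A list of 61 further enteroendocrine genes was read in the same fit. Of these, 48 had a named peak, with 197 peaks in all. Among 21 other regulators, 18 had a peak, with 78 peaks. Pax4, Foxa2 and Fev had none. Among 10 other hormone genes, 5 had 1 peak each, and none was named for Sst, Pyy, Iapp, Gal or Uts2b. Hormone genes outside the members thus had a peak in 5 of 10. Of genes of granule and amine handling 20 of 22 had one, and of receptors and sensors 5 of 8. These shares were not adjusted for gene length.

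Differences across these 197 peaks were centred near 0, with a median of -0.02, against -0.02 over all peaks. limma called none of them. At an unadjusted p below 0.05 there were 2 (1.02%, against 2.28% of all peaks), and 7 (3.55%, against 6.80%) had groups that did not overlap. Both shares were below those of all peaks. The smallest p among peaks with a higher KO mean was at Ddc, the decarboxylase that follows Tph1 in serotonin synthesis. The Ddc peak chr11:11836801-11837400 had 5.73, 4.34 and 5.49 in WT and 5.82, 5.69 and 6.24 in KO, a difference of 0.73 with an adjusted limma p of 1.00. The next was a peak named for Tox3, a high mobility group factor, chr8:90248701-90249450, at 0.54. The lowest p in the other direction was at St18, a zinc finger factor of endocrine cells. Its peak chr1:6778201-6778950 had 5.93, 5.79 and 6.02 in WT and 4.82, 5.27 and 5.70 in KO, a difference of -0.65 with an adjusted limma p of 1.00. Another St18 peak, chr1:6572551-6573450, had a difference of -0.55.

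**Figure D5:**
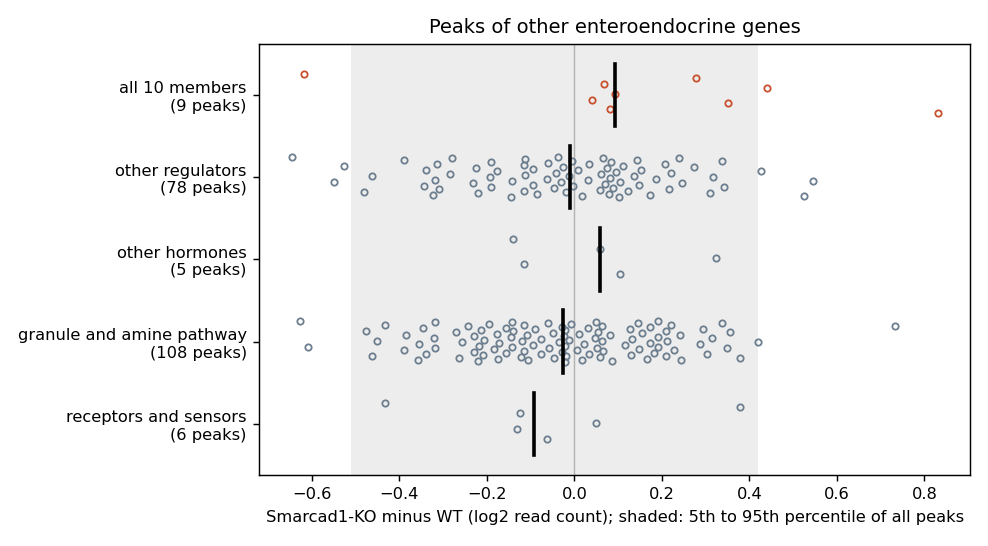
Smarcad1-KO minus WT log2 read count of the member peaks (red) and of peaks named for other enteroendocrine genes by list, with the list median as a bar and the 5th to 95th percentile of all peaks shaded. The medians lie between -0.09 for receptors and sensors and 0.09 for the members.

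Markers of other cell types were read as well, since enteric neurons also express Tac1, Chga and Chgb. Of 8 markers of enteric neurons and glia 3 had a named peak, and Sox10, Uchl1 and Tubb3 were among those without. Their summed linear level was 627 to 962 in WT and 601 to 894 in KO, whereas the members summed to 901 to 1147 and 969 to 1373. Of 6 immune markers 3 had a peak, with sums of 516 to 590 in WT and 512 to 571 in KO, and Cd3e and Cd79a were among those without. All 6 stromal and endothelial markers had peaks, with sums of 1158 to 1277 and 1111 to 1317. Of 8 epithelial markers 6 had peaks, with sums of 7222 to 9944 and 6865 to 11460, and Epcam and Vil1 had none. Of 4 stem cell markers 3 had peaks, with sums of 1743 to 3274 in WT and 1834 to 3539 in KO, and Ascl2 had none. The KO mean was higher in 17 of 21 epithelial peaks, with a median difference of 0.15, and in 9 of 13 stem cell peaks, with a median of 0.06. It was higher in 2 of 8 neuronal and glial peaks (median -0.15), in 3 of 9 immune peaks (median -0.14) and in 8 of 18 stromal peaks (median -0.00476). In each list 1 gene held many of the peaks, 10 of the 21 epithelial and 6 of the 13 stem cell peaks. For neurons and glia it was 6 of 8, for immune cells 4 of 9 and for stroma 10 of 18. The matching share over all peaks was not counted, so these counts do not compare the amounts of cell types. The sums of every list overlapped between genotypes, and the part of these cell types in the member values was not tested.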

How the data were processed

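The authors trimmed reads with Trim Galore (0.4.1), mapped them to GRCm38 with Bowtie2 (2.2.5), removed duplicates and called MACS peaks in SeqMonk with a mapping quality limit of 20. The values the authors deposited are log2 read counts per peak, scaled to the largest library. All values came out as whole multiples of 1 read (tolerance 0.02 reads), which gave the depth. A second deposited table holds the authors' edgeR comparison and was not used. KO was compared with WT by limma (3.58.1, R 4.3.3, lmFit, eBayes with trend) over 123510 peaks, two-sided, with Benjamini-Hochberg adjustment. Group was the only term. The fit used the deposited log2 values in place of the authors' edgeR on counts. Recovered reads entered only the voom alternative, and edgeR was not run on them. The fit was tested on simulated data with independent noise in each library and larger changes than at any member. The pattern that libraries of the same number shared was not simulated. Alternatives were median centring, trimmed mean scaling (0.3 and 0.05), quantile normalization, voom, minimum means of 20 and 50, a pseudocount of 5, a replicate block, a threshold of 0.1, other gene assignment, and each library left out. Gene positions are from GENCODE vM21 and promoters from RefSeq (GRCm38.p6). All members were named, with the other enteroendocrine peaks of smallest p, 2 in each direction. Members and lists were chosen with earlier results of these data known. Some marker genes of other cell types are not reported here by name.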

Additional observations from a re-analysis of the deposited data

How the results depend on the processing

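No member peak was called under any alternative, and the smallest adjusted limma p was 0.281, at Cck. Over all peaks, limma called 2 with median centring, 2 with trimmed mean scaling, 3 with quantile normalization, 3 with voom and, leaving out 1 library, 0 to 30 (30 without KO2, 1 without WT3). The replicate number as a block gave 272, of which 199 were higher in KO. Deviations from the group means correlated at 0.04, 0.42 and 0.41 between libraries of the same number. Between different numbers the values ran from -0.46 (WT3 and KO2) to 0.04 (WT1 and KO3). The main fit did not take the numbers as pairs, and what the number stands for was not tested. The 2 members with an unadjusted p below 0.05 became 1 with voom, 0 with a minimum mean of 50, which kept 5 members, and 1 to 3 leaving out a library (1 without WT1 or without KO2, 3 without WT2). The members' median difference ran from -0.0910 to 0.26 leaving out a library. The regulator minus product strength was 2.15 for whole peaks, -0.0525 for strongest peaks only and -0.00992 by annotation, as other widths or peaks then enter. Single peaks kept their direction in 112 of 122 alternative values. That count includes the minimum means and the replicate block, which return the main difference and so could not turn it. Chgb chr2:132781351-132782100 turned to -0.0103 with voom and ran from -0.33 to 0.26 leaving out a library. The same range was -0.18 to 0.29 at Insm1, -0.12 to 0.27 at the 3′ Chga peak, -0.0608 to 0.774 at the intronic Chgb peak and -0.13 to 0.22 at the Tac1 start peak. The cause was not tested. A minimum mean of 20 removed 0 peaks. Depth limits the weak peaks most, where 1 read in KO3 counts as 3.99.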
